A study of Mus musculus with 9 samples.

Results

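MHC class I heavy chains and their shared light chain were followed across 3 populations of mouse splenic DCs. The genes were chosen by name from the deposited expression table and are B2m, the classical heavy chains H2-K1 and H2-D1, and 7 nonclassical heavy chains, H2-Q4, H2-Q6, H2-Q7, H2-T22, H2-T23, H2-T24 and H2-M3. They make up 10 of the 54532 genes listed. On build mm10, B2m lies at chr2:122147686-122153083, and the other 9 genes lie in the MHC of chromosome 17, in the order H2-K1 (chr17:33996017-34000333), H2-D1 (chr17:35262730-35267499), H2-Q4 (chr17:35379617-35385290), H2-Q6 (chr17:35424850-35430055), H2-Q7 (chr17:35439155-35443773), H2-T24 (chr17:36005695-36020560), H2-T23 (chr17:36029773-36032855), H2-T22 (chr17:36037128-36042747) and H2-M3 (chr17:37270220-37274484). Bulk RNA of T-DCs and of 2 kinds of mature DC, N-mDCs and T-mDCs, was sequenced in 3 samples per group. N-mDCs were mature conventional DCs from spleens of normal mice that carried no leukemia. T-mDCs were mature conventional DCs from spleens of mice with T cell acute lymphoblastic leukemia (T-ALL), and T-DCs were the CD11c+MHCIIlo cells, labelled immature DCs, from leukemic spleens. Both leukemic groups were taken on day 15. In the study's methods, c-kit+ bone marrow cells of C57BL/6J mice received a retrovirus with the intracellular domain of Notch1 and GFP, and GFP+ leukemia cells were passed on to unirradiated C57BL/6J or C57B6.SJL hosts. The hosts therefore kept their own immune cells, and the labels do not say which host strain each sample came from. Mice in the study were females of 6 to 8 weeks. T-DCs were gated on low surface MHCII, so class II levels were part of how this group was defined, whereas class I was not. Nothing in the sources states how many mice gave each sample, and p-values measure the spread between these samples, which may be partly technical.

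MHC class I molecules carry peptides from inside the cell to its surface. A heavy chain pairs with beta-2 microglobulin, the product of B2m, and takes up a peptide that the proteasome has cut, the TAP transporter has brought into the endoplasmic reticulum and tapasin has helped to load. The classical H2-K and H2-D molecules present to CD8+ T cells, and in DCs they also carry peptides of material that the DC has taken up, which is called cross-presentation. Nonclassical heavy chains show little variation between strains and serve narrower purposes. H2-T23 encodes Qa-1, which binds the NKG2A receptor of NK cells and some T cells, and H2-M3 presents formylated peptides such as those of bacteria. H2-Q7 is among the Q region genes that encode Qa-2, and H2-T22 is recognised by a group of gamma delta T cells. NLRC5 is the transactivator of class I genes, and interferon and NF-kB signals act on their promoters.

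RefSeq gives promoter sequence, 250 bases before to 50 after the start site, for 9 of the 10 genes, on build GRCm38.p6. Both strands were searched for the kB core (10 letters that begin with GGG, end with CC and have T as the sixth). They were also searched for the interferon-stimulated response element (ISRE) core (GAAA and GAAA with 2 letters between them). An ISRE-like form (GAA and GAAAC with 2 letters between them) was added after the promoters had been read. The kB core was found in 8 of the 9 genes, against 18.4% of 32851 promoters of the same length. The ISRE core was found in B2m, H2-T22 and H2-T23, against 3.44% of promoters. The ISRE-like form was found in H2-K1, H2-D1, H2-Q4, H2-Q6, H2-Q7 and H2-M3, against 1.73%. Since that form was added after these promoters had been read, setting its count beside 1.73% is no test. Matches to the kB core can overlap one another, on the same strand or on opposite strands. A match describes the letters only. The last 200 bases before the start are shown for H2-K1, which did not pass the test in any comparison, and for H2-Q4, H2-Q6 and H2-M3, which were lower in T-DCs. Capitals mark matches to the kB core and the ISRE-like form, on either strand, and each sequence runs 5′ to 3′ on the strand of its gene.
H2-K1, chr17:34000334-34000533, minus strand: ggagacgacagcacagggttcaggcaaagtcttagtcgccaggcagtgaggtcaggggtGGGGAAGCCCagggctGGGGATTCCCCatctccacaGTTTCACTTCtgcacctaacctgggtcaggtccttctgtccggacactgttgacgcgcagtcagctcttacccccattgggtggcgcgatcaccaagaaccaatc
H2-Q4, chr17:35379417-35379616, plus strand: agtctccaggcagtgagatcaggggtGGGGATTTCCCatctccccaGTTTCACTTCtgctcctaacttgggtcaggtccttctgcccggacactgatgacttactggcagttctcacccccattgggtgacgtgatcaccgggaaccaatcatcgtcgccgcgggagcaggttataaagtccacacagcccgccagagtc
H2-Q6, chr17:35424650-35424849, plus strand: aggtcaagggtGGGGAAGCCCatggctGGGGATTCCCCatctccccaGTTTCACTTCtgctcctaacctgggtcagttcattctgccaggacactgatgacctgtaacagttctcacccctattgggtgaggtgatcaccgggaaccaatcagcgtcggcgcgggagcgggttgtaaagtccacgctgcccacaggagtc
H2-M3, chr17:37270034-37270233, plus strand: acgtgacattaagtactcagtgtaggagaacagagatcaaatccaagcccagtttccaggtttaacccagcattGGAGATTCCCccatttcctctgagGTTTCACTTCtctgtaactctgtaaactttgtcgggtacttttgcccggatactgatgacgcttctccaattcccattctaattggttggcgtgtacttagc
In each of these, the ISRE-like match lay a short way downstream of a kB match. In H2-K1 the kB match GGGGATTCCC began at position -125 from the start and the ISRE-like match at -105. In H2-Q6 the same 10 letters began at -173 and the ISRE-like match at -153. H2-Q4 carried GGGATTTCCC at -173 and H2-M3 carried GGAGATTCCC at -126. Thus the printed promoters of H2-Q4, H2-Q6 and H2-M3 held both kinds of match. So did that of H2-K1, which did not pass the test. The promoter of H2-T23, another gene lower in T-DCs against N-mDCs, held an ISRE core and neither a kB core nor an ISRE-like match.

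The authors deposited FPKM, which are reads per kilobase of gene scaled to library size. Library size here means the size recovered from these values, which equalled median-of-ratios scaling and was not a count of reads. In T-DC sample 2 it was 15498648, below the 16977553 reads on genes. Reads on genes ranged from 15360815 to 18440913 per sample, and the genes followed here had between 212 reads (H2-T24 in T-mDC sample 3) and 80456 reads (H2-D1 in T-DC sample 1) so that counting error bears most on H2-T24. All 10 genes passed the filter on low values and were among the 12746 genes tested with limma on log2(FPKM + 1). Differentially expressed genes (DEGs) had an adjusted p under 0.05. In T-DCs the 4 markers of conventional DCs (Itgax, Zbtb46, Flt3 and Dpp4) summed to 185.1, 109.5 and 57.5 FPKM, below the 243.9 to 385.6 FPKM of N-mDCs and the 284.8 to 360 FPKM of T-mDCs, 3 of the 4 being lower DEGs in each T-DC comparison and none at 0. Itgax, which encodes the CD11c of the sort, was at 42.97 to 151.6 FPKM in T-DCs. T-DC samples 2 and 3 stood apart from T-DC sample 1 in red cell transcripts: 11 erythroid genes summed to 58845 and 43232 FPKM in them and to 616.6 FPKM in sample 1. Against N-mDCs 4 of the 11 were higher DEGs and against T-mDCs 11 of 11. The same sum was 99.91 to 5367 FPKM in N-mDCs and 15.55 to 183.5 FPKM in T-mDCs. The 6 neutrophil genes listed summed to 2893 and 970.3 FPKM in T-DC samples 2 and 3 and to 11.93 FPKM in T-DC sample 1. T-DC sample 1 was in turn higher in 8 macrophage genes, at 2736 FPKM against 922.7 and 599.9 FPKM in samples 2 and 3. The macrophage sum was 1497 to 3185 FPKM in N-mDCs and 427.6 to 1229 FPKM in T-mDCs. In T-DC samples 1, 2 and 3, 5 cDC2 genes summed to 424.5, 195.9 and 110.4 FPKM, and 5 cDC1 genes to 143.8, 61.38 and 36.32 FPKM. Some markers of other cells were lower in T-DCs. Against N-mDCs all 5 NK cell genes, 4 of 6 B cell genes and 2 of 4 plasmacytoid DC genes were lower DEGs. Yet the B cell sums overlapped, at 489.1, 3749 and 1329 FPKM for T-DC samples 1, 2 and 3 and 790.8 to 3754 for N-mDCs. Of 5 plasma cell genes, 4 had a positive log2 fold change and 0 were DEGs. The 5 summed to 555.5, 7766 and 4353 FPKM for T-DCs and 970.2 to 8715 for N-mDCs. T-mDC sample 1 exceeded samples 2 and 3 in B cell genes (1880, 355.5 and 361.2 FPKM) and plasma cell genes (2900, 143.7 and 152.6). Its macrophage sum (1229 FPKM) was the group's highest. The NK cell genes summed to 42.74 to 112.8 FPKM for N-mDCs, 2.049 to 14.8 for T-DCs and 6.021 to 13.05 for T-mDCs, and 4 of the 5 were also lower DEGs in T-mDCs against N-mDCs. In such bulk samples, fewer cells of a type and less RNA per cell cannot be told apart, and the part that other cell types or fewer DCs had in the class I results was not tested. T-mDC samples 2 and 3 were unusually alike, with a chi-square per gene of 1.85 between their reads where other pairs within a group gave 8.11 to 36.2. This is still above the value of 1 that counting alone gives, and they were kept as separate samples.

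Class I genes were among the most abundant transcripts of these cells. By mean FPKM over the 9 samples, a scale per length, B2m ranked 8, H2-D1 ranked 23 and H2-K1 ranked 28 of all genes. The length is the one listed for each gene, so the order of genes depends on it. In N-mDC sample 1, H2-Q7 (4265 bases) had 4195 reads and H2-M3 (1438 bases) had 2102, while H2-M3 was higher by FPKM. In every group the order began with B2m and continued with the classical heavy chains, whose ranges overlapped each other. In N-mDCs the nonclassical genes followed as H2-T23, H2-Q6, H2-Q4, H2-M3, H2-Q7, H2-T22 and H2-T24, and no neighbours in this stretch overlapped between samples. In T-DCs the lower part of the order was not resolved: H2-Q4, H2-T24, H2-Q7, H2-M3 and H2-T22, with means of 59.7, 44.0, 41.8, 31.2 and 28.7 FPKM, each overlapped the next. T-mDCs had H2-Q6 above H2-T23, the reverse of N-mDCs, without overlap.

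**Figure D1:**
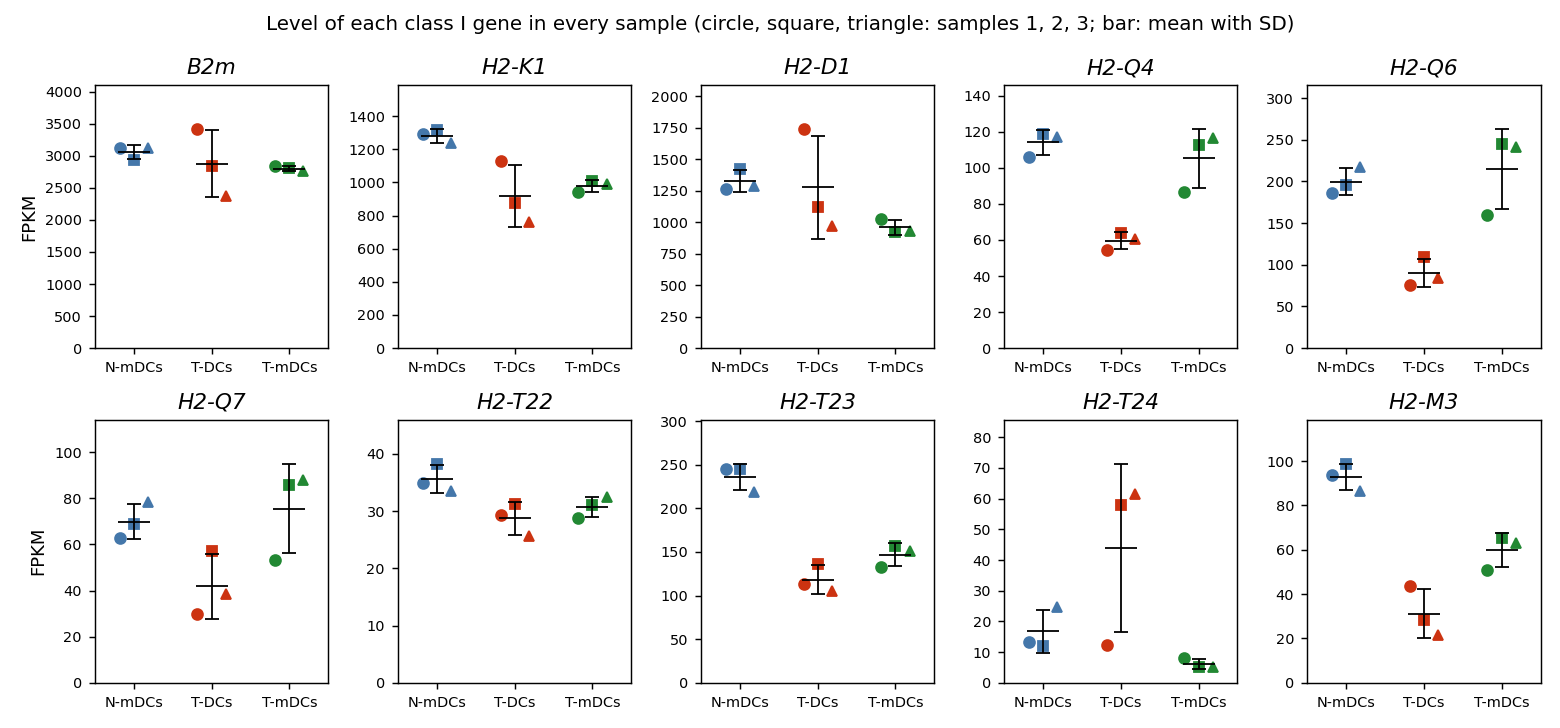
FPKM (vertical axis, from 0) of B2m and 9 heavy chain genes by group; circles, squares and triangles are samples 1, 2 and 3 of a group and bars show the mean with SD (n = 3). H2-Q4, H2-Q6 and H2-M3 lie lower in every T-DC sample than in any other sample, while B2m and H2-D1 overlap between T-DCs and both other groups.

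The first comparison asked how class I genes of T-DCs differed from those of normal mature DCs. T-DCs expressed lower levels of 4 nonclassical genes, H2-M3, H2-Q6, H2-T23 and H2-Q4, while B2m, H2-K1 and H2-D1 did not pass the test. Of the 10 genes, 4 were DEGs, all lower, where 10.3% of all tested genes were lower DEGs, 6.1% higher and 16.4% either. Of the 10 genes, 9 had a negative log2 fold change, with a median over the 10 genes of -0.63, against 0.05 over all tested genes. In 7 genes every T-DC sample lay below every N-mDC sample, a separation that 16.4% of all tested genes showed in this direction, 16% in the other and 32.4% in either. The second comparison set T-DCs against mature DCs of the same leukemic spleens. Here H2-Q6, H2-M3 and H2-Q4 were lower and H2-T24 was higher in T-DCs, 3 lower and 1 higher DEGs beside 8.79% and 5.44% of all tested genes (14.2% in either direction). The same 4 genes were those whose samples did not overlap, beside 18.1% lower, 16.8% higher and 34.9% either way among all tested genes. The median over the 10 genes was -0.21, against 0.07 over all tested genes. The same T-DC samples entered both comparisons. The third comparison, T-mDCs against N-mDCs, gave 0 DEGs among the 10 genes with limma, with 1.52% lower, 0.69% higher and 2.21% either way over all tested genes, although 2 genes had an unadjusted p under 0.05 and limma voom on the recovered reads also gave 0. Even so, 7 of the 10 genes had every T-mDC sample below every N-mDC sample, where 15.7% of all tested genes were separated in this direction, 19.3% in the other and 35% in either. These were B2m, H2-K1, H2-D1, H2-T22, H2-T23, H2-T24 and H2-M3, while the Q region genes overlapped. This separation was counted on the deposited scale only. The gap was narrow for B2m (at most 2834 FPKM in T-mDCs, at least 2932 in N-mDCs) and for H2-T22 (32.39 and 33.57 FPKM). Rescaled to TPM, these 2 genes had log2 fold changes of 0.09 and 0.008, on the other side of 0. Tested for any difference among the 3 groups, 5 of the 10 genes passed in limma (H2-Q4, H2-Q6, H2-T23, H2-T24 and H2-M3), where 18% of all tested genes did.

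The 4 DEGs against N-mDCs passed whichever of the 9 samples was left out. With the erythroid level as a covariate, a fit that called 3.7% of all tested genes against 16.4% without it, 0 passed. The adjusted limma p-values of these 4 genes were then 0.0631 to 0.0735. Their log2 fold changes in that fit were -1.01 for H2-Q4, -1.26 for H2-Q6, -1.02 for H2-T23 and -1.11 for H2-M3, so that H2-M3 alone of the 4 was smaller than without the covariate. The calls against T-mDCs were less firm. Without T-mDC sample 2 or sample 3, or with both averaged into 1, 0 of the 10 genes passed in limma. Those fits called 4.26%, 4.24% and 4.24% of all tested genes, against 14.2% in the fit reported. Without T-DC sample 2, 1 of the 10 genes passed, beside 6.47% of all tested genes. Without T-DC sample 3, 2 passed, beside 8.43%. With the erythroid covariate 0 passed against T-mDCs as well, with log2 fold changes of -0.91 for H2-Q4 and -1.38 for H2-Q6, larger than without it, and smaller ones for H2-M3 and H2-T24, given with these genes. In that fit 0 of the 12746 tested genes passed between T-DCs and T-mDCs, the MHCII genes included, although all 10 of those had an unadjusted limma p under 0.05.

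**Figure D2:**
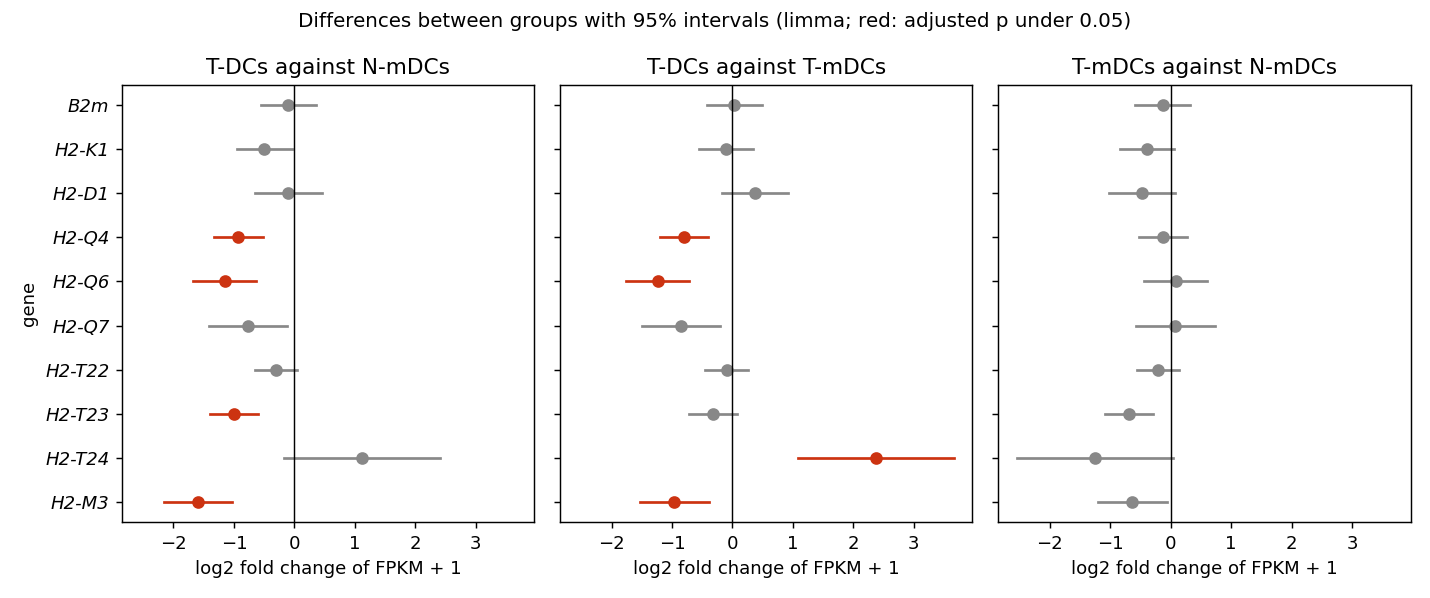
Log2 fold change of FPKM + 1 (horizontal axis) for each gene in the 3 comparisons, with 95% intervals from limma; red marks an adjusted p under 0.05. The nonclassical H2-Q4, H2-Q6 and H2-M3 are red and left of 0 in both T-DC comparisons, H2-T24 is red and right of 0 against T-mDCs, and no gene is red in the comparison of T-mDCs with N-mDCs.

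B2m, the light chain that all these heavy chains need, was at 3126, 2932 and 3114 FPKM for N-mDCs, 3421, 2844 and 2373 for T-DCs, and 2834, 2802 and 2755 for T-mDCs. T-DC samples lay on both sides of the other groups, sample 1 above all and sample 3 below all. Its log2 fold change was -0.10 against N-mDCs (95% interval -0.56 to 0.35, limma adjusted p = 0.753) and 0.03 against T-mDCs (-0.43 to 0.48, limma adjusted p = 0.942). These intervals leave room for differences of about the size seen in H2-K1.

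H2-K1, which encodes the classical H2-K molecule, was at 1295, 1316 and 1236 FPKM for N-mDCs, 1127, 873.5 and 760.1 for T-DCs, and 940.5, 1010 and 991.3 for T-mDCs. Both leukemic groups lay wholly below N-mDCs and overlapped each other. The log2 fold change of T-DCs against N-mDCs was -0.50 ± 0.20 (SE), with a limma adjusted p of 0.112. Without T-DC sample 1 it was -0.65 and passed the test (limma adjusted p = 0.0176). Against T-mDCs it was -0.11 (95% interval -0.56 to 0.34, limma adjusted p = 0.736).

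H2-D1, the other classical heavy chain, was at 1263, 1426 and 1291 FPKM for N-mDCs, 1742, 1120 and 971.5 for T-DCs, and 1029, 921.6 and 929.5 for T-mDCs. T-DC sample 1 had the highest value of all samples, whereas T-DC samples 2 and 3 lay below every N-mDC sample. The log2 fold change was -0.10 against N-mDCs (limma adjusted p = 0.804) and 0.37 against T-mDCs (95% interval -0.18 to 0.92, limma adjusted p = 0.342). In T-mDCs every sample was below every N-mDC sample, with a log2 fold change of -0.47 that did not pass (limma adjusted p = 0.370).

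Of the 3 genes of the Q region, H2-Q6 and H2-Q4 were lower in T-DCs in both comparisons and H2-Q7 did not pass the test. H2-Q6 was at 186.3, 196.3 and 217.1 FPKM for N-mDCs, 76.31, 109.3 and 84.43 for T-DCs, and 160, 245.1 and 240.9 for T-mDCs. All T-DC samples lay below all others, and the 2 mature groups overlapped. T-DCs were 2.23-fold lower than N-mDCs (log2 fold change -1.16 ± 0.23 (SE), limma adjusted p = 0.0124) and 2.36-fold lower than T-mDCs (-1.24 ± 0.23, limma adjusted p = 0.0104). H2-Q4 was at 106.3, 118.9 and 117.3 FPKM for N-mDCs, 54.43, 63.97 and 60.56 for T-DCs, and 86.5, 112.8 and 116.6 for T-mDCs. It showed the same order as H2-Q6, with T-DCs apart and the mature groups overlapping. T-DCs were 1.90-fold lower than N-mDCs (limma adjusted p = 0.0110) and 1.74-fold lower than T-mDCs (limma adjusted p = 0.0212). H2-Q7, among the Q region genes that encode Qa-2, was at 62.91, 68.63 and 78.18 FPKM for N-mDCs. It was at 29.91, 57.21 and 38.4 FPKM for T-DCs, and 53.08, 85.6 and 87.95 for T-mDCs. T-DC sample 2 lay above T-mDC sample 1, so these groups overlapped, and the log2 fold changes were -0.77 against N-mDCs (limma adjusted p = 0.0932) and -0.85 against T-mDCs (limma adjusted p = 0.0806). Without T-mDC sample 1 the latter was -1.08 and passed (limma adjusted p = 0.0413). For T-mDCs against N-mDCs the 3 genes had log2 fold changes between -0.13 and 0.08.

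These genes share sequence, which could move reads between them, and how reads with several matches were counted is not given in the sources used here. Of the windows of 50 bases in the annotated exons, 32.0% in H2-Q6, 26.4% in H2-Q7 and 21.8% in H2-Q4 occur in another gene, against 9.63% in H2-K1, 12.8% in H2-D1 and 0% in B2m. At 100 bases the share was at most 12%, in H2-Q7. Reads summed over H2-Q4, H2-Q6 and H2-Q7 and scaled to library size (RPM) do not depend on how reads were split among these 3, though they do on exchange with other genes. This sum was 932.7, 1011 and 1091 RPM for N-mDCs, 428, 638.1 and 497 for T-DCs, and 784.6, 1169 and 1180 for T-mDCs. It was lower in every T-DC sample than in any other, at 0.515 times the mean for N-mDCs and 0.499 times that for T-mDCs. H2-Q4 also overlaps 496 exon bases of an antisense gene, Gm11131, which was at most 1.78 FPKM in any sample.

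Genes of the T region differed from one another. H2-T23, which encodes the NKG2A ligand Qa-1, was at 244.7, 245 and 218.5 FPKM for N-mDCs, 113.4, 136.4 and 104.9 for T-DCs, and 132.3, 157.1 and 151.1 for T-mDCs. Both leukemic groups lay below N-mDCs, and they overlapped each other. T-DCs were 2.0-fold lower than N-mDCs (log2 fold change -1.0 ± 0.18 (SE), limma adjusted p = 0.00777). T-mDCs were also below N-mDCs in every sample, by -0.68 on the log2 scale, without passing the test (limma adjusted p = 0.0940), though without T-DC sample 1 in the fit it passed (limma adjusted p = 0.0444). The difference between T-DCs and T-mDCs was -0.32 (95% interval -0.71 to 0.08, limma adjusted p = 0.264). H2-T22, the gamma delta T cell ligand, was at 34.88, 38.3 and 33.57 FPKM for N-mDCs, 29.27, 31.3 and 25.68 for T-DCs, and 28.84, 30.99 and 32.39 for T-mDCs. Its range over all 9 samples was 0.56 on the log2 scale, and its log2 fold change of T-DCs was -0.30 against N-mDCs (limma adjusted p = 0.195) and -0.10 against T-mDCs (limma adjusted p = 0.703). Of its 50-base windows, 34.5% occur in another gene, mostly in H2-T10.

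H2-T24 was the only gene of the 10 with a positive log2 fold change against N-mDCs. It was at 13.22, 12.15 and 24.84 FPKM for N-mDCs, 12.36, 58.02 and 61.6 for T-DCs, and 8.035, 5.312 and 5.283 for T-mDCs. T-DC samples 2 and 3 were far above all others, while T-DC sample 1 lay among the N-mDC samples. The log2 fold change was 2.37 ± 0.57 (SE) against T-mDCs, or 5.16-fold (limma adjusted p = 0.0274), and 1.12 against N-mDCs (95% interval -0.17 to 2.41, limma adjusted p = 0.191). The T-DC samples with high H2-T24 were those with the high erythroid and neutrophil sums. N-mDC sample 2, with the highest erythroid sum outside T-DCs (5367 FPKM), had the lowest H2-T24 of its group. N-mDC sample 3 had the highest H2-T24 of its group. It also had the highest neutrophil sum outside T-DC samples 2 and 3 (633.7 FPKM) and the highest NK cell sum of all samples (112.8 FPKM). T-DC sample 2 had a higher neutrophil sum than T-DC sample 3 (2893 and 970.3 FPKM) and a lower H2-T24. The part of other cell types in the level of H2-T24 was not tested. With the erythroid covariate the log2 fold change was 0.55 against T-mDCs and -0.18 against N-mDCs, and neither passed in limma (adjusted p = 0.714 and 0.883). The call against T-mDCs was lost without T-DC sample 2 or 3 (limma adjusted p = 0.0974 and 0.0862) and without T-mDC sample 2 or 3 (limma adjusted p = 0.107 and 0.108). Without T-DC sample 1 the difference from N-mDCs was 1.85 and passed (limma adjusted p = 0.00252). T-mDCs were below N-mDCs by -1.25 on the log2 scale, which passed without T-DC sample 1 in the fit (limma adjusted p = 0.0353) and not with it (limma adjusted p = 0.312).

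H2-M3, which presents formylated peptides, had the lowest ratio of T-DCs to N-mDCs among the 10 genes. It was at 93.49, 98.52 and 86.48 FPKM for N-mDCs, 43.52, 28.4 and 21.8 for T-DCs, and 51.09, 65.16 and 63.18 for T-mDCs. The 3 groups did not overlap, with N-mDCs highest and T-DCs lowest. T-DCs were 3.02-fold lower than N-mDCs (log2 fold change -1.60 ± 0.25 (SE), limma adjusted p = 0.00508) and 1.95-fold lower than T-mDCs (limma adjusted p = 0.0366). T-mDCs were below N-mDCs by -0.63 on the log2 scale (limma adjusted p = 0.250). H2-M3 shares 0.576% of its 50-base windows with another gene, a low share beside the Q region. Within T-DCs, samples 2 and 3 with the high erythroid sums were lower than sample 1, which itself lay below every sample of the other groups. The call against T-mDCs was lost under 12 of 22 alternatives, among them leaving out any N-mDC sample, T-DC sample 2 or 3, or T-mDC sample 2 or 3. With any sample left out the log2 fold change was between -1.22 and -0.74, against -0.96 with all samples. With the erythroid covariate its log2 fold change was -0.29 (limma adjusted p = 0.705).

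**Figure D3:**
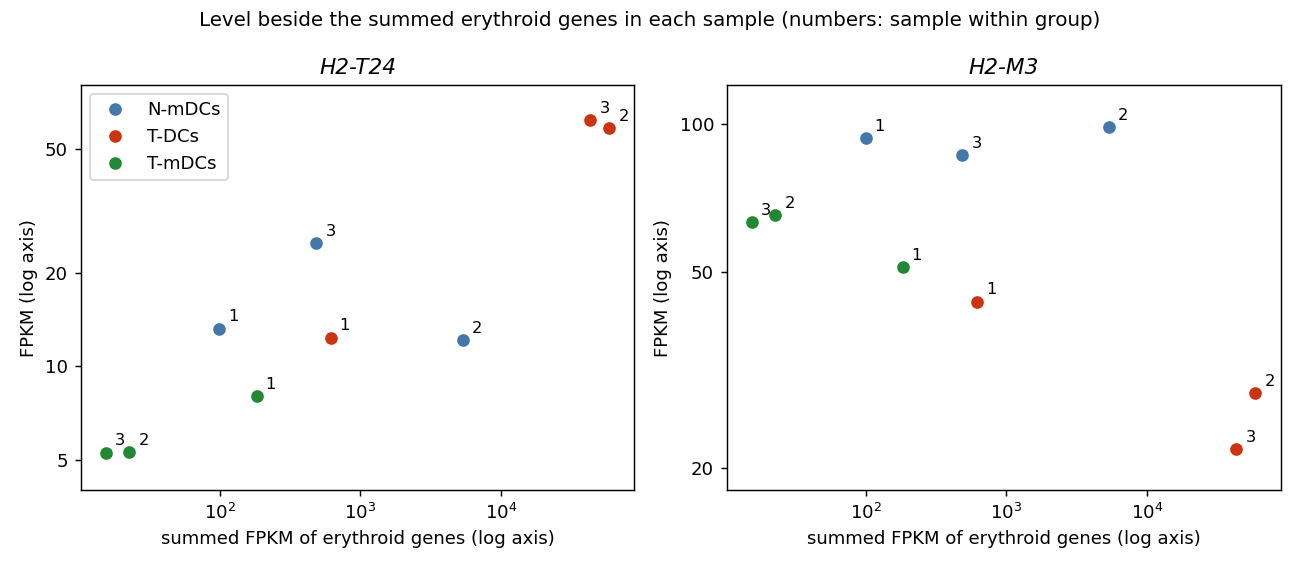
FPKM of H2-T24 (left) and H2-M3 (right) against the summed FPKM of 11 erythroid genes in each sample, both on log axes; colours mark groups and numbers the sample within its group. T-DC samples 2 and 3 combine the highest erythroid sums with the highest H2-T24 and the lowest H2-M3, whereas N-mDC sample 2 has an erythroid sum of 5367 FPKM with H2-T24 at 12.15 FPKM and H2-M3 at 98.52 FPKM.

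As a pool, heavy chain transcripts were below N-mDCs in every sample of both leukemic groups, and their make-up differed in T-DCs. Reads on the 9 heavy chain genes scaled to library size (RPM) were 8558, 9127 and 8567 for N-mDCs, 8375, 6472 and 5541 for T-DCs, and 6462, 6844 and 6812 for T-mDCs. T-DC sample 1 was close to N-mDCs, T-DC sample 2 lay within the range of T-mDCs and T-DC sample 3 below it. The means were 8751 ± 326, 6796 ± 1444 and 6706 ± 212 RPM (SD, n = 3), and the spread was widest in T-DCs. Scaled instead to reads on genes, the means were 8704, 6507 and 7133 RPM, with T-DCs below T-mDCs and T-DC sample 2 (5908 RPM) below the T-mDC range. No test was run on this sum, since the genes were chosen by name.

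The share of the classical chains in the summed FPKM was 80.4 to 88.9% for T-DCs, above the 76.5 to 77.9% for N-mDCs and the 73.3 to 79.1% for T-mDCs without overlap. Nonclassical chains summed to 741.8, 777.7 and 776 FPKM for N-mDCs, 359.2, 484.6 and 397.3 for T-DCs, and 519.8, 702 and 697.5 for T-mDCs. All T-DC samples were lowest here, including sample 1, in which the classical chains were highest. H2-D1 alone made up 45.2 to 54.0% of the pool in T-DCs, against 38.3 to 40.5% in N-mDCs and 35.0 to 41.3% in T-mDCs. The ratio of H2-K1 to H2-D1 was 0.647, 0.780 and 0.783 in T-DCs, below the 0.922 to 1.03 of N-mDCs and the 0.914 to 1.10 of T-mDCs. B2m per heavy chain, as a ratio of FPKM, averaged 0.908 ± 0.0647 for N-mDCs, 1.11 ± 0.0443 for T-DCs and 1.09 ± 0.0468 for T-mDCs (SD, n = 3), with N-mDCs lowest without overlap.

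**Figure D4:**
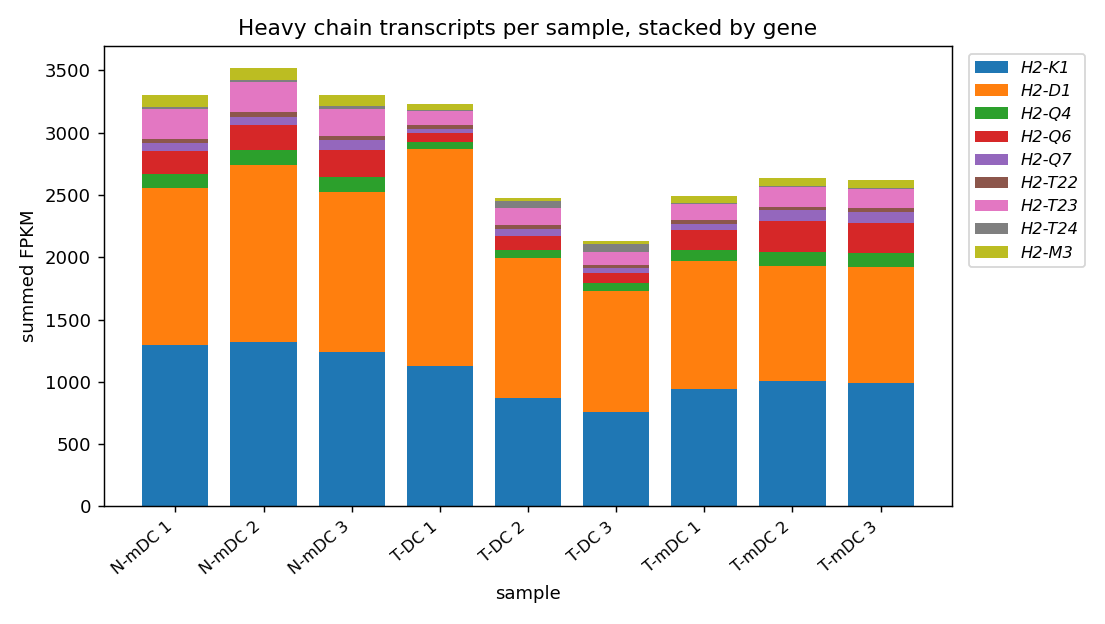
Summed FPKM of the 9 heavy chain genes in each sample (bars from 0), stacked by gene. H2-K1 and H2-D1 fill 73.3% or more of every bar, and the nonclassical part on top is thinnest in the T-DC samples, at 359.2 to 484.6 FPKM.

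Genes that supply and load class I peptides were also lower in T-DCs. Of 13 genes listed, 7 were lower DEGs and 0 higher against N-mDCs (9 had an unadjusted limma p under 0.05, and the background is the 10.3% given above), with a median log2 fold change of -0.88. The same count, 7 lower and 0 higher, held against T-mDCs, with a median of -0.78. Between T-mDCs and N-mDCs 0 of the 13 passed in limma or limma voom, and 0 had an unadjusted p under 0.05. The count against N-mDCs was 1 with the erythroid covariate, and it was 4 when any of T-DC samples 2 and 3, N-mDC samples 1 and 2 or T-mDC samples 2 and 3 was left out. Against T-mDCs it was 3 without T-DC sample 2 or 3, 0 with the covariate, and 1 without T-mDC sample 2 or 3. Each of these fits also called a smaller share of all tested genes than the fit reported. Tap1, a subunit of the peptide transporter, was at 73.83, 75.54 and 70.76 FPKM for N-mDCs, 34.61, 40.5 and 35.36 for T-DCs, and 69.3, 98.1 and 97.16 for T-mDCs. T-DCs lay wholly below the mature groups, by -0.98 on the log2 scale against N-mDCs (limma adjusted p = 0.0103) and -1.22 against T-mDCs (limma adjusted p = 0.00455). Against N-mDCs the proteasome activator subunits Psme2 (-1.65) and Psme1 (-1.21) and the immunoproteasome subunits Psmb9 (-1.40) and Psmb8 (-1.23) fell, with limma adjusted p-values from 0.00606 to 0.0290. Against T-mDCs, Psme2 (-1.43), Psmb9 (-1.40) and the tapasin-related Tapbpl (-1.17) fell, with limma adjusted p-values from 0.0113 to 0.0282. The chaperones Calr and Canx did not pass in either comparison, at -0.33 and 0.43 on the log2 scale against N-mDCs (limma adjusted p = 0.239 and 0.0877).

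Among 12 regulators, Nlrc5 was lower in both T-DC comparisons. The transactivator was at 29.55, 12.21 and 26.49 FPKM for N-mDCs, 7.126, 8.858 and 6.328 for T-DCs, and 17.11, 25.92 and 25.38 for T-mDCs. Every T-DC sample was below every other sample, and the log2 fold change was -1.41 against N-mDCs (limma adjusted p = 0.0229) and -1.48 against T-mDCs (limma adjusted p = 0.0211). The interferon pathway factor Irf1 (-1.79, limma adjusted p = 0.00750) was lower against N-mDCs, and Rfx5 (-1.82, limma adjusted p = 0.0190), part of the complex that NLRC5 joins, was lower against T-mDCs. In all, 2 regulators were lower and 0 higher DEGs against N-mDCs, and likewise 2 and 0 against T-mDCs, with list medians of -0.10 and -0.41, and 2 of 12 stands close to the shares of all tested genes given above (10.3% lower against N-mDCs, 8.79% against T-mDCs). Leaving out T-DC sample 2 or 3, or N-mDC sample 1 or 3, brought the first count to 1. The second was 1 without T-DC sample 2 and 0 without T-DC sample 3, T-mDC sample 2 or T-mDC sample 3. Without T-DC sample 1 each comparison gave 5 lower and 2 higher, in fits that called 39.5% and 35.1% of all tested genes. Both counts were 0 with the erythroid covariate (3 and 1 with an unadjusted limma p under 0.05). The NF-kB subunits Rela and Nfkb1 did not pass (-0.54 and -0.81 on the log2 scale against N-mDCs, limma adjusted p = 0.0552 and 0.0784).

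**Figure D5:**
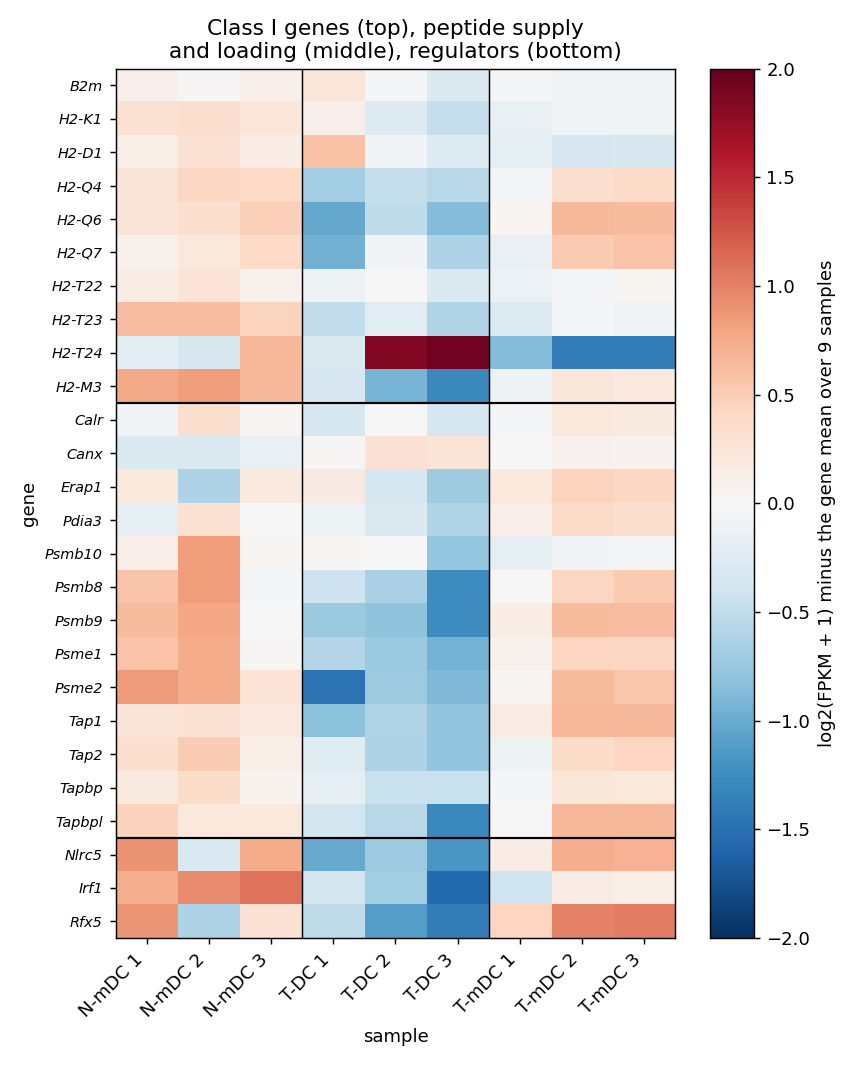
Log2(FPKM + 1) minus the mean of each gene over the 9 samples, per sample, for the 10 class I genes, the 13 genes of peptide supply and loading and the 3 regulators that passed the test in a T-DC comparison; blue is below and red above the mean. All T-DC columns are blue at H2-Q4, H2-Q6, H2-T23 and H2-M3 and from Psmb8 to Rfx5, H2-D1 is red in T-DC sample 1, and H2-T24 is red in T-DC samples 2 and 3.

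Other class I genes were mostly too low to test: 5 of the 21 listed in the table passed the filter. Of these, H2-M2 and H2-Q10 (-1.29, limma adjusted p = 0.00777) were lower DEGs against N-mDCs, and H2-M2 and H2-M5 (-1.35, limma adjusted p = 0.00928) against T-mDCs, with 0 higher, beside the same 10.3% and 8.79% of all tested genes. The count of 2 against N-mDCs became 4 without T-DC sample 1 and 1 with the erythroid covariate, and that against T-mDCs became 1 without T-mDC sample 3 and 0 with the covariate. H2-M2 was at 84.66, 16.14 and 64.2 FPKM for N-mDCs, 1.188, 0.5824 and 0.3822 for T-DCs, and 10.35, 14.31 and 13.53 for T-mDCs. Its groups did not overlap, and T-DCs were lower by -4.76 on the log2 scale against N-mDCs (limma adjusted p = 0.00150), a larger difference than for any of the 10 genes described above. H2-M5 and H2-Q10 were under 5 FPKM in every sample. Of 7 tested class I-like genes encoded elsewhere in the genome, 2 were lower DEGs against N-mDCs and 3 against T-mDCs, with 0 higher, beside 10.3% and 8.79% lower of all tested genes. The 3 against T-mDCs became 1 when T-mDC sample 2 or 3 was left out and 0 with the erythroid covariate. Cd1d1, whose product presents lipids to NKT cells, was at 34.74 to 45.74 FPKM for N-mDCs, 2.921 to 9.428 for T-DCs, and 17.6 to 28.61 for T-mDCs, with log2 fold changes of -2.64 and -1.90 (limma adjusted p = 0.00255 and 0.0105). Procr, which encodes the protein C receptor, fell by 2.65 and 2.46 on the log2 scale (limma adjusted p = 0.00102 and 0.00184). Ulbp1, a ligand of the activating receptor NKG2D, was lower against T-mDCs (-1.0, limma adjusted p = 0.0207) and had 0.08 against N-mDCs (limma adjusted p = 0.827). In T-mDCs against N-mDCs Ulbp1 was a higher DEG (1.08, limma adjusted p = 0.0468), though not with limma voom.

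Class II transcripts gave a reference for these levels. All 10 genes of MHCII presentation were lower DEGs in both T-DC comparisons, with medians of -4.00 and -3.43, and the gate that defined T-DCs was itself on MHCII. H2-Aa, H2-Ab1 and H2-Eb1, the class II chains, summed to 17455, 16781 and 12444 FPKM for N-mDCs, 1444, 756.7 and 325.4 for T-DCs, and 7379, 11144 and 11129 for T-mDCs. The classical class I chains were at 1.99 to 5.32 times this sum for T-DCs, 0.147 to 0.203 for N-mDCs and 0.173 to 0.267 for T-mDCs. Thus, by summed FPKM, the classical class I chains exceeded the class II chains in each T-DC sample and in no other sample.

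For the 6 class I genes whose values ranged over at least 1 on the log2 scale, the 3 genes closest in pattern were found by the root mean square difference of centred log2(FPKM + 1) over the 9 samples, class I genes above left out. For H2-Q6 these were Gm6087, Tap1 and 5830428M24Rik, at differences of 0.13, 0.13 and 0.17. For H2-Q4 they were Nipsnap1, Slc25a29 and Traf3ip2 (0.10 to 0.12) and for H2-Q7 Ndrg1, Rhbdf1 and Adgrl1 (0.18 to 0.19). For H2-T23 they were Gdf11, Ubxn11 and Cuedc1 (0.11 to 0.12) and for H2-M3 B4galt4, Zc3h10 and Plcb2 (0.12 to 0.14). H2-T24 had no close match, with St3gal6, Fads3 and Cmpk2 at 0.26 to 0.31. These are likenesses over 9 samples in 3 groups, which share the group differences.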

How the data were processed

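The authors deposited FPKM per gene for 9 samples sorted from spleens. GEO's processing notes name the genome build mm10, and the aligner, counter, treatment of reads with several matches and test are not given in the sources used here. The genes and lists were chosen with earlier results of these data known. FPKM times gene length gave whole reads to within 4.56e-05 of a read, and the library sizes so found equalled median-of-ratios scaling. Reads on genes were 0.93 to 1.10 times these sizes. The 12746 genes that reached an FPKM of 1 in 3 or more samples were fitted as log2(FPKM + 1) with limma 3.58.1 in R 4.3.3, 3 groups in a single fit, with an empirical Bayes trend, and p-values were adjusted by Benjamini-Hochberg. A pseudocount of 1 understates changes of low genes. Genes named are the 10 class I genes, for each list the DEGs with the largest changes (at most 4), and Tap1 and Nlrc5. Other genes shown for contrast (Calr, Canx, Rela, Nfkb1) were chosen after their values were seen. Gene coordinates matched GENCODE M21 in 98.3% of 54409 genes, and windows were taken from its transcripts. The procedure was tested on simulated data. The erythroid covariate was the mean log2(FPKM + 1) of 11 listed erythroid genes, centred over the samples. Of the listed regulators, 1 gene is not reported here.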

Additional observations from a re-analysis of the deposited data

How the results depend on the processing

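Each comparison was repeated under 22 alternatives, of which scaling to reads on genes, and the same repeats for the gene lists, were chosen after the data were seen. The count of class I DEGs between T-DCs and N-mDCs stayed within 1.5 times of 4 in 21 of them and was 0 with the erythroid covariate. Leaving out 1 sample gave 4 to 6. Between T-DCs and T-mDCs the count of 4 became 2 without a filter, 8 with array weights, 0 with T-mDC samples 2 and 3 averaged into 1, 0 with the erythroid covariate and 1 with only the groups compared in the fit, and leaving out 1 sample gave 0 to 5. Between T-mDCs and N-mDCs the count of 0 became 5 with array weights and 1 with only the groups compared, and leaving out 1 sample gave 0 to 2. Heavy chain reads scaled to reads on genes were 7133 RPM in T-mDCs and 6507 in T-DCs, which turned the order of these means. Over all tested genes, array weights, for which the estimate did not converge fully, called 8485, 9923 and 3841 genes in the 3 comparisons, against 2096, 1813 and 282 as reported. The erythroid covariate called 471 and 0 in the T-DC comparisons, averaging T-mDC samples 2 and 3 called 1395, 540 and 23, and using only the groups compared called 1070, 1036 and 850. The third count was also 107 with a pseudocount of 0.1, 111 with a filter at 5 FPKM, 99 as TPM and 179 with limma voom. The stricter filter tested fewer genes and the averaging used fewer samples. The cause of the other changes was not tested.

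With the replicate number as a block, 4, 3 and 0 of the 10 genes passed in the 3 comparisons, H2-M3 being lost against T-mDCs (limma adjusted p = 0.0693), and 1378, 1253 and 78 of all tested genes. Samples share only a number: the deviations of the 9 same-numbered pairs correlated at -0.475 to 0.269, with 2 over 0.1.

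No log2 fold change of the 10 genes that passed the test changed sign under any alternative run. Of those that did not pass, some changed sign, giving 25 reversed values counted once per gene, comparison and alternative. For T-DCs against N-mDCs these were B2m, H2-D1 and H2-T24 with the erythroid covariate (0.15, 0.26 and -0.18) and H2-T22 with copies counted together (0.39). Leaving out 1 sample gave B2m -0.23 to 0.03 and H2-D1 -0.35 to 0.076, both positive without T-DC sample 3. For T-DCs against T-mDCs they were B2m as TPM (-0.30) and scaled to reads on genes (-0.13), H2-K1 with the erythroid covariate (0.28) and with copies together (0.15), and H2-T22 with copies together (0.88). Leaving out 1 sample gave B2m -0.11 to 0.16, negative without T-DC sample 1, and H2-K1 -0.27 to 0.017, positive without T-DC sample 3. For T-mDCs against N-mDCs they were B2m, H2-Q4 and H2-T22 as TPM (0.09, 0.091 and 0.008), H2-Q4 with array weights (0.019) and copies together (0.024), and H2-Q6 and H2-Q7 with T-mDC samples 2 and 3 averaged (-0.016 and -0.036). Leaving out 1 sample gave H2-Q4 -0.21 to 0.008, positive without T-mDC sample 1, H2-Q6 -0.023 to 0.28 and H2-Q7 -0.046 to 0.31, both negative without T-mDC sample 2 or 3. Counting copies together gives H2-T22 the sum with H2-T24, H2-K1 the sum with H2-D1, and H2-Q4 the sum with H2-Q6 and H2-Q7. The first 2 sums join genes that share little sequence. H2-T24 shares 1.24% of its 50-base windows with another of the 10 genes, and H2-K1 shares 4.08% with H2-D1. The values of H2-T22 and H2-K1 under this alternative therefore describe the sums. TPM moved the median of all genes to -0.043, -0.23 and 0.24 in the 3 comparisons, against 0.053, 0.068 and 0.027, and the lower share of calls between T-DCs and T-mDCs to 1339 of 1715 from 1120 of 1813 (reads on genes 1452 of 1972), and between T-mDCs and N-mDCs to 50 of 99 from 194 of 282. Median-of-ratios scaling equalled the deposited scaling.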

Other observations

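Pseudogenes of the class I region, named after their values were seen, also differed. H2-K2, a pseudogene beside H2-K1, was at 78.41, 87.75 and 72.09 FPKM for N-mDCs, 40.98, 23.62 and 13.12 for T-DCs, and 57.06, 82.52 and 77.54 for T-mDCs. T-DCs lay below both groups in every sample, by -1.71 on the log2 scale against N-mDCs and by -1.57 against T-mDCs (limma adjusted p = 0.0156 and 0.0237), where H2-K1 had -0.50 and -0.11. H2-T-ps was at 12.98 to 14.14 FPKM for N-mDCs, 4.629 to 7.015 for T-DCs and 10.97 to 12.85 for T-mDCs, and T-DCs were lower by -1.04 and -0.90 on the log2 scale (limma adjusted p = 0.00771 and 0.0152). H2-M6-ps was at 2.577 to 3.945 FPKM in T-mDCs and at most 1.175 FPKM in any other sample, and its log2 fold change of T-DCs against T-mDCs was -1.50 (limma adjusted p = 0.00569). H2-T-ps shares 6.05% of the 50-base windows of H2-T23.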
